A study of Mus musculus with 6 samples.

Results

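Cdkn1a, Trp53 and 8 direct p53 target genes (Mdm2, Ccng1, Bax, Bbc3, Zmat3, Trp53inp1, Phlda3 and Gadd45a) were compared between control and PGAM5 KD macrophages after LPS. These 10 genes, of the 54532 genes listed, were found by their GENCODE M21 symbol and were chosen from the difference between these same libraries, so their own differences are given as a description without a p-value. In short, Cdkn1a was 2.12-fold higher in PGAM5 KD cells, from 33.8 ± 0.909 to 71.6 ± 0.234 FPKM (SD, n = 3). FPKM is the number of fragments scaled for transcript length and for the depth of the library. The mRNA levels of Trp53 and of its negative regulator Mdm2 differed by 1.04-fold. Ccng1, Bbc3, Phlda3, Gadd45a and, by a small margin, Bax were higher in every PGAM5 KD library, while Zmat3 and Trp53inp1 overlapped between the groups.

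The cells were iBMDMs, mouse bone marrow-derived macrophages immortalized with a retrovirus carrying v-raf and v-myc. Control cells carried a lentiviral control shRNA and PGAM5 KD cells a lentiviral shRNA against Pgam5, a mitochondrial protein phosphatase, and both groups received 100 ng/ml LPS for 4 hours. Each group of 3 poly(A) RNA-seq libraries came from 1 shRNA line. Nothing says whether the 3 libraries of a group were separate cultures, so the spread between them may be technical, and cells without LPS were not analysed here. The oncogenes are shared by both groups, so all values below describe p53 target genes in oncogene-immortalized macrophages.

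p53, encoded by Trp53 in the mouse, is a transcription factor that is held low by the ubiquitin ligase Mdm2 and is stabilized mainly at the protein level by DNA damage and other stresses. It binds DNA as a tetramer on paired decamers and induces genes for cell cycle arrest (Cdkn1a, Gadd45a), cell death (Bax, Bbc3), its own feedback control (Mdm2, Ccng1) and other tasks. The product of Cdkn1a, p21, inhibits cyclin-dependent kinases and thereby lets Rb family and DREAM complexes repress cell cycle genes. In macrophages Cdkn1a is also induced by differentiation and inflammatory signals that do not need p53.

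Sequences before transcription starts are shown for those of the 10 genes in which they held an exact p53 decamer. RefSeq promoter windows of GRCm38.p6, with 250 bases before and 50 after a start, were used for 8 of the 10 genes, all but Zmat3 and Trp53inp1. The p53 decamer is a 10-letter motif with a 4-letter core that reads alike on both strands. An exact decamer stood before a start of Cdkn1a, Trp53, Mdm2, Ccng1, Bax and Gadd45a, which are 6 of the 8 genes, and in no window of Bbc3 or Phlda3. Of all 27025 genes with such windows 9.55% held an exact decamer. Capitals mark exact decamers and, at the end of the capitals of Cdkn1a, a decamer with 1 letter off, and every sequence is written 5′ to 3′ on the strand of its gene.
Cdkn1a, chr17:29090729-29090975, plus strand: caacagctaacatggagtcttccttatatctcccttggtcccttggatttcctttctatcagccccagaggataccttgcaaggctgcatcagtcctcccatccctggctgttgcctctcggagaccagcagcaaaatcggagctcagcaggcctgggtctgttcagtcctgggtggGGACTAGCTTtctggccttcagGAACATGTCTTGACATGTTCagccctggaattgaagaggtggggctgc
Trp53, chr11:69580274-69580303, plus strand: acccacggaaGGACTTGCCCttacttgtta
Mdm2, chr10:117710925-117710954, minus strand: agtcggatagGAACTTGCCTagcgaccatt
Ccng1, chr11:40755452-40755481, minus strand: agacctgcccGGGCAAGCCTtggcactgaa
Bax, chr7:45467080-45467109, minus strand: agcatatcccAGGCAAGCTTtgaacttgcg
Gadd45a, chr6:67037428-67037457, minus strand: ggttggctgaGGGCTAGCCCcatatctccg

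A pair was taken as 2 decamers at most 13 bases apart, each with an intact core and at most 1 letter off outside it. By this rule Cdkn1a was the only one of these 8 genes with a pair of decamers. Such a pair stood in 1.61% of all genes with windows. The adjacent pair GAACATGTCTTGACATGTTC at chr17:29090928-29090947 begins at position -51 from the distal start and 2841 bases before the second Cdkn1a start, whose own window held no decamer. The Gadd45a stretch lies within the longer first exon that GENCODE M21 gives this gene. Pairs with a changed core or with more letters off were not searched for, so weaker p53 sites in the other windows would be missed. A match is a description of the sequence, and binding of p53 was not measured here.

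The libraries held between 18163463 and 24388917 fragments by the steps of their FPKM values. Pgam5, the target of the shRNA, was 17.1, 13.0 and 13.4 FPKM in control and 4.33, 5.75 and 4.53 FPKM in PGAM5 KD libraries, a log2 fold change of -1.40 (SE 0.13, limma adjusted p = 0.000358). Of 10 macrophage markers 8 had a mean of at least 1 FPKM, Mertk was listed at 0 and Marco was at 0.0238 FPKM. The markers summed to 2977 to 3062 FPKM in control and 2689 to 2717 FPKM in PGAM5 KD libraries, and the part of this lower sum in the results was not tested. Marker sets of neutrophils, fibroblasts, lymphocytes and dendritic cells each summed to at most 0.613 FPKM in any library.

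Cdkn1a (ENSMUSG00000023067, chr17:29090976-29100727, GRCm38, plus strand) encodes p21, the cyclin-dependent kinase inhibitor. Control libraries 1 to 3 had 33.9, 32.8 and 34.6 FPKM of it, and PGAM5 KD libraries 1 to 3 had 71.4, 71.8 and 71.7 FPKM. The groups stood far apart and the PGAM5 KD libraries were nearly equal, with an SD of 0.234 FPKM where counting error alone gives 0.974 FPKM. The log2 fold change, taken here and below as PGAM5 KD minus control on log2(FPKM + 1), was 1.06 (SE 0.03), from 2186 to 6213 fragments per library. Leaving out any single library kept it between 1.04 and 1.08. In level, Cdkn1a went from percentile 84.4 of the 10540 tested genes in control to percentile 92.7 in PGAM5 KD. These are bulk libraries, in which more cells with Cdkn1a mRNA and more of it per cell cannot be told apart. An unnamed antisense transcript, AC167363.2, shares 7.7% of the exon bases of Cdkn1a on the opposite strand, and Cdkn1a held 99.6% to 99.9% of the fragments of this pair.

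**Figure D1:**
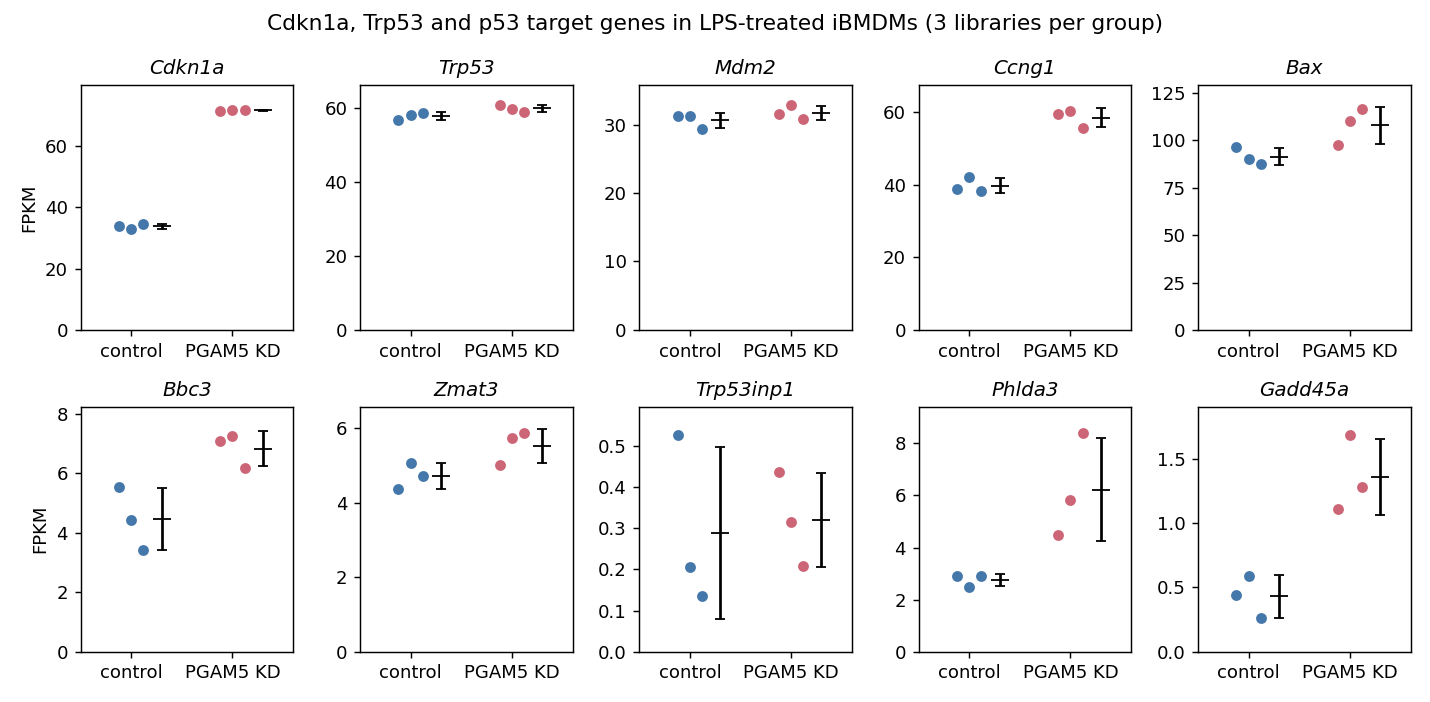
Level in FPKM (vertical axes, linear, from 0) of each of the 10 genes in control (blue) and PGAM5 KD (red) libraries, each point 1 library in the order of its replicate number, with mean and SD in black (n = 3). Cdkn1a sits at 32.8 to 34.6 in control and at 71.4 to 71.8 in PGAM5 KD, while the points of Trp53 and Mdm2 lie at almost the same height in both groups.

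Trp53 itself (ENSMUSG00000059552, chr11:69580359-69591873, plus strand) was 56.7, 58.2 and 58.6 FPKM in control and 60.9, 59.8 and 59.1 FPKM in PGAM5 KD libraries. Every PGAM5 KD value was above every control value, but the highest control and the lowest PGAM5 KD library were close, and the log2 fold change was 0.05 (SE 0.03). The sign turned with the scaling, to -0.01 after quantile normalization and -0.03 after scaling to TPM, and the groups then overlapped. A processed pseudogene, Trp53-ps, is 94.9% identical to Trp53 over 1090 bases, and Trp53 held 99.3% to 99.7% of the fragments of the pair. The amount and modification of p53 protein were not measured.

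Among the feedback genes, Mdm2 (ENSMUSG00000020184, chr10:117688875-117710758, minus strand), the ubiquitin ligase for p53, was 31.3, 31.3 and 29.4 FPKM in control and 31.5, 32.9 and 30.9 FPKM in PGAM5 KD libraries. The groups overlapped, with a log2 fold change of 0.05 (SE 0.04) that became 0.02 without control replicate 3, 0.03 without PGAM5 KD replicate 2 and -0.03 after scaling to TPM. Ccng1 (ENSMUSG00000020326, chr11:40748552-40755311, minus strand), which encodes cyclin G1, a partner of protein phosphatase 2A in the control of Mdm2, was 38.8, 42.1 and 38.4 FPKM in control and 59.6, 60.5 and 55.5 FPKM in PGAM5 KD libraries. The groups were clearly separate, and the log2 fold change of Ccng1 was 0.55 (SE 0.05) and stayed between 0.52 and 0.59 without any single library. Trp53inp1 (ENSMUSG00000028211, chr4:11156431-11174379, plus strand), a stress protein that promotes p53 activity, was 0.527, 0.207 and 0.135 FPKM in control and 0.436, 0.315 and 0.209 FPKM in PGAM5 KD libraries. It rested on 17 to 62 fragments per library, the groups overlapped, and it was below the filter of a mean of 1 FPKM. Mdm2 and Ccng1 each had 1 exact decamer in the sequences above, and of these feedback genes Ccng1 alone had separate groups.

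The other arrest gene, Gadd45a (ENSMUSG00000036390, chr6:67035096-67037457, minus strand), a stress sensor of DNA damage and growth arrest, was 0.437, 0.590 and 0.261 FPKM in control and 1.11, 1.69 and 1.28 FPKM in PGAM5 KD libraries. All PGAM5 KD libraries were higher, by 3.16-fold in the means, but this rested on 9 to 21 fragments in control and 43 to 55 in PGAM5 KD libraries. The gene was below the filter, and without the filter its log2 fold change was 0.72 (SE 0.14). The transcript E230016M11Rik shares 19.1% of the exon bases of Gadd45a on the opposite strand and had 0 to 10 fragments, so part of the Gadd45a signal is uncertain where strand was not kept.

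Of the cell death genes, Bax (ENSMUSG00000003873, chr7:45461697-45466898, minus strand), which forms pores in the outer mitochondrial membrane, was 96.8, 90.1 and 87.7 FPKM in control and 97.4, 110.3 and 116.5 FPKM in PGAM5 KD libraries. PGAM5 KD replicate 1 was barely above control replicate 1, and the log2 fold change was 0.23 (SE 0.07), with 0.18 to 0.31 when any single library was left out. After quantile normalization, scaling to TPM or voom on recovered fragments the Bax groups overlapped. Bbc3 (ENSMUSG00000002083, chr7:16308393-16318205, plus strand) encodes PUMA, a BH3-only protein that activates Bax, and was 5.52, 4.41 and 3.42 FPKM in control and 7.07, 7.23 and 6.16 FPKM in PGAM5 KD libraries. Its groups did not overlap, but the control libraries were widely spread, and the log2 fold change of 0.54 (SE 0.14) lay between 0.39, without control replicate 3, and 0.67, without control replicate 1.

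Phlda3 (ENSMUSG00000041801, chr1:135766119-135769136, plus strand), a repressor of the kinase Akt, was 2.90, 2.48 and 2.89 FPKM in control and 4.47, 5.83 and 8.39 FPKM in PGAM5 KD libraries. All PGAM5 KD libraries were above control, although they differed widely among themselves on 153 to 319 fragments. The log2 fold change was 0.91 (SE 0.18), with 0.70 without PGAM5 KD replicate 3 and 1.09 without PGAM5 KD replicate 1. Zmat3 (ENSMUSG00000027663, chr3:32334792-32366014, minus strand), a zinc finger protein that binds RNA, was 4.36, 5.06 and 4.72 FPKM in control and 5.01, 5.72 and 5.86 FPKM in PGAM5 KD libraries. PGAM5 KD replicate 1 lay below control replicate 2, and the log2 fold change was 0.19 (SE 0.08). Stretches of 200 to 207 bases of Zmat3 are 86.2% to 89.5% identical to parts of Aox1, Bpnt1, Ccdc138 and Polr2f, so some of its fragments could have been assigned elsewhere.

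Of the 10 genes, 8 passed the filter and 2, Trp53inp1 and Gadd45a, did not. The groups did not overlap for 7 genes, all higher in PGAM5 KD, and overlapped for Mdm2, Zmat3 and Trp53inp1. None of the 10 genes was lower in every PGAM5 KD library. Among the 8 genes that passed the filter 6 were higher without overlap, a count that the choice of the genes used. Over all 10540 tested genes 24.2% were higher without overlap. With quantile normalization or scaling to TPM the count was 4, namely Cdkn1a, Ccng1, Bbc3 and Phlda3. With voom on recovered fragments Trp53 joined them, for a count of 5. The share over all genes was taken on the FPKM scale only, so these counts have no share to be read against.

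**Figure D2:**
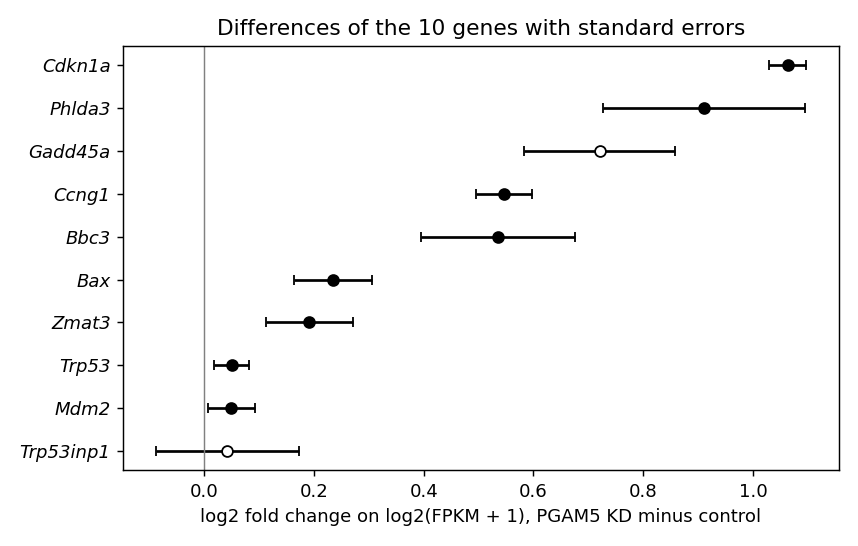
Log2 fold change of each of the 10 genes on log2(FPKM + 1), PGAM5 KD minus control (horizontal axis), with the standard error as bars (n = 3 per group). Filled points are the 8 genes that passed the filter and open points the 2 below it. Cdkn1a at 1.06 stands at the top with a narrow bar, and Trp53 and Mdm2, both at 0.05, stand near 0.

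The order of the genes by size depended on the scale and on 1 library. On log2(FPKM + 1) with all 6 libraries Cdkn1a had the largest of the 10 differences, ahead of Phlda3, but without PGAM5 KD replicate 1 Phlda3 was at 1.09 and Cdkn1a at 1.07. By the ratio of group means Gadd45a, at 3.16, and Phlda3, at 2.26, came before Cdkn1a, at 2.12. The constant of 1 FPKM shrinks the differences of low genes, and with 0.1 in its place Phlda3 had a log2 fold change of 1.10 and Cdkn1a of 1.08. With voom on recovered fragments these were 1.15 and 1.08.

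In level, Bax led the 10 genes in control with 91.5 FPKM, followed by Trp53 (57.8 FPKM), Ccng1 (39.8 FPKM), Cdkn1a (33.8 FPKM) and Mdm2 (30.7 FPKM), with no overlap of ranges between neighbours. Zmat3 (4.71 FPKM) and Bbc3 (4.45 FPKM) overlapped, Phlda3 (2.76 FPKM) came next, and Gadd45a (0.429 FPKM) and Trp53inp1 (0.289 FPKM) overlapped at the bottom. In PGAM5 KD cells Bax still led with 108 FPKM, but Cdkn1a, at 71.6 FPKM, was now second. Trp53 (59.9 FPKM) and Ccng1 (58.5 FPKM) overlapped, Mdm2 (31.8 FPKM) stayed behind them, and Bbc3 (6.82 FPKM), Phlda3 (6.23 FPKM) and Zmat3 (5.53 FPKM) overlapped from each to the next.

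The ratio of Cdkn1a to other genes in the same library does not depend on the scaling of the libraries. Cdkn1a over Mdm2 was 1.08, 1.05 and 1.18 in control and 2.26, 2.18 and 2.32 in PGAM5 KD libraries. Cdkn1a over Trp53 was 0.597, 0.564 and 0.591 in control and 1.17, 1.20 and 1.21 in PGAM5 KD libraries. Thus Cdkn1a mRNA was below Trp53 mRNA per length in each control library and above it in each PGAM5 KD library. The ratios of Cdkn1a to Ccng1, Bax and Zmat3 were also higher in every PGAM5 KD library. Its ratio to Phlda3 overlapped, at 12.3 ± 0.818 in control and 12.3 ± 3.72 in PGAM5 KD (SD, n = 3), as did its ratios to Bbc3, Gadd45a and Trp53inp1.

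The tested genes whose profile over the 6 libraries was most like that of Cdkn1a were Endod1, Csf3, Msr1, Ly6e and Bst2. Likeness was measured as the root mean square difference of the centred log2(FPKM + 1) values, which was 0.03 for Endod1, 0.04 for each of the other four, and 0.54 for the median tested gene. Csf3, the cytokine G-CSF, was 68.1 ± 2.23 FPKM in control and 140.1 ± 6.33 FPKM in PGAM5 KD, and Msr1, a macrophage scavenger receptor, was 11.6 ± 0.315 and 24.9 ± 0.794 FPKM (SD, n = 3). Bst2, also called tetherin, was 89.8 ± 4.83 FPKM in control and 189 ± 8.68 FPKM in PGAM5 KD (SD, n = 3). Of the other p53 genes Phlda3 was nearest to Cdkn1a, at 0.24, then Ccng1 at 0.27 and Bbc3 at 0.32. Trp53 and Mdm2, both at 0.51, were about as far from Cdkn1a as the median gene.

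A further list held 41 other p53 target genes, of which 32 passed the filter. This list and those below were chosen with earlier results of these data known, so their counts and p-values are a description. In PGAM5 KD cells 14 of the 32 rose and 3 fell at an adjusted p under 0.05 by limma over all genes, and 15 did not pass. This is 43.8% higher, against 16.8% of all tested genes higher and 14.9% lower. After scaling to TPM the list gave 10 higher and 7 lower, while the split over all genes went from 1771 higher and 1575 lower to 1088 higher and 2282 lower. The list had a median log2 fold change of 0.21, and all tested genes one of 0.01. The count of 14 was 9 without control replicate 1 or 3, 8 without PGAM5 KD replicate 2 and 7 without PGAM5 KD replicate 3, and 8 with no filter or with a filter at 5 FPKM. On log2(FPKM + 1) none of the 32 had an absolute log2 fold change above 1, which does not hold for Ddit4 with a pseudocount of 0.1, scaling to TPM, voom, or without PGAM5 KD replicate 1.

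Among the genes of this list that rose were Ddit4, Ephx1 and Ak1. Ddit4, an inhibitor of mTORC1 that hypoxia and other stresses also induce, was 1.47, 1.38 and 0.876 FPKM in control and 2.44, 4.02 and 3.06 FPKM in PGAM5 KD libraries, a log2 fold change of 0.89 (SE 0.17, limma adjusted p = 0.00875) that was 1.29 with a pseudocount of 0.1, 1.09 after scaling to TPM and 1.32 with voom on recovered fragments. Ephx1, an epoxide hydrolase, rose by 0.68 (SE 0.16, limma adjusted p = 0.0192), and missed the threshold with no filter, without control replicate 3 and without PGAM5 KD replicate 3, with adjusted p of 0.0634, 0.0562 and 0.0617. Ak1, an adenylate kinase, rose by 0.52 (SE 0.10). The death receptor gene Fas rose by 0.37 (SE 0.09) and the antiproliferative gene Btg2 by 0.31 (SE 0.08), with limma adjusted p of 0.0199 and 0.0196.

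Steap3, Trp53i11 and Plk2 fell. Steap3, a metalloreductase of iron uptake, was 7.21, 5.58 and 6.91 FPKM in control and 3.56, 3.68 and 4.13 FPKM in PGAM5 KD libraries, a log2 fold change of -0.65 (SE 0.10, limma adjusted p = 0.00328). Trp53i11 fell by 0.59 (SE 0.16), by 0.91 with voom on recovered fragments, and did not pass with no filter (limma adjusted p = 0.0919) or without control replicate 1 or 2 or PGAM5 KD replicate 2 or 3. The polo-like kinase Plk2 fell by 0.34 (SE 0.08), and did not pass without control replicate 2 or without PGAM5 KD replicate 3. Pmaip1, which encodes the BH3-only protein NOXA, was 9.43 ± 1.09 FPKM in control and 9.20 ± 0.286 FPKM in PGAM5 KD (SD, n = 3), with a log2 fold change of -0.03 (SE 0.08). The sestrin gene Sesn1 had a log2 fold change of -0.23 (SE 0.08, limma adjusted p = 0.0793) and Sesn2 of 0.17 (SE 0.10, limma adjusted p = 0.269). Perp was listed at 0 in every library, and Gdf15 was at 0.299 ± 0.203 and 0.225 ± 0.113 FPKM (SD, n = 3), below the filter.

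**Figure D3:**
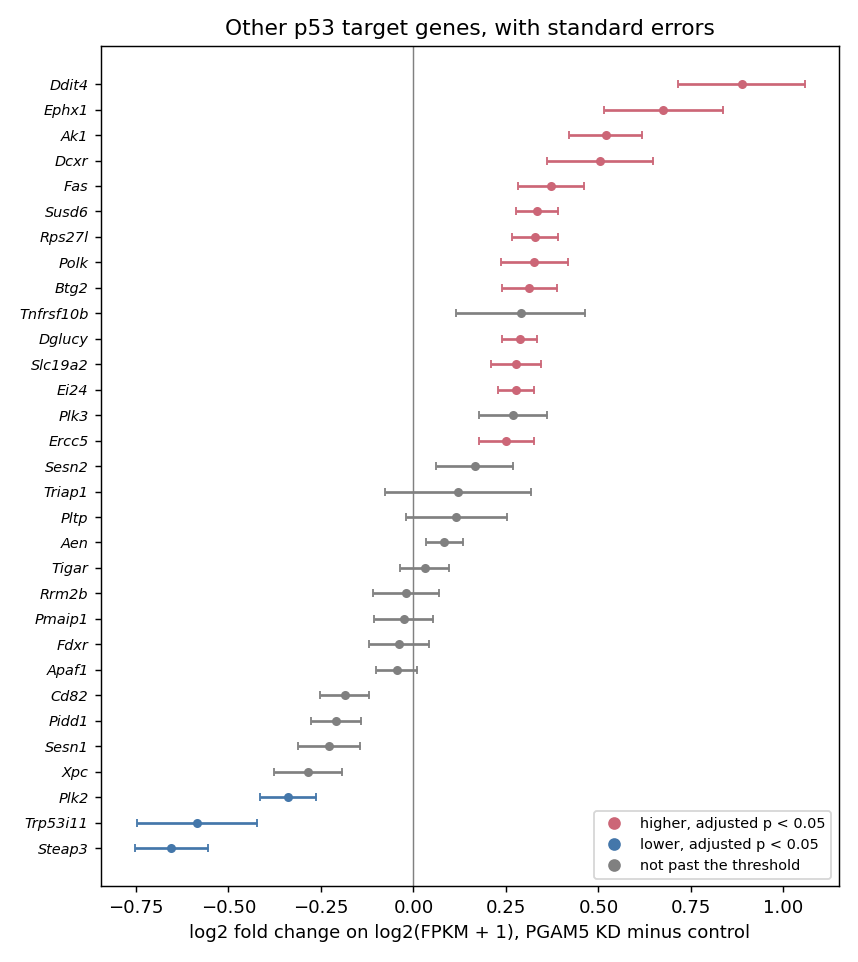
Log2 fold change of 31 of the other p53 target genes that passed the filter, PGAM5 KD minus control on log2(FPKM + 1) (horizontal axis), with the standard error as bars (n = 3 per group). Red marks the 13 genes shown that rose and blue the 3 that fell at a limma adjusted p under 0.05, and grey the 15 that did not pass. Ddit4 at 0.89 and Steap3 at -0.65 are the ends of the range shown.

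Of 20 tested genes that control p53, 2 rose (10%, against 16.8% of all tested genes) and 6 fell (30%, against 14.9%), and the median log2 fold change was -0.10. The split was 1 to 6 after quantile normalization and 1 to 9 after scaling to TPM. The 6 that fell had exon lengths of 5331 to 14798 bases and the 2 that rose of 2697 and 3920 bases. The 12 others had 2062 to 23629 bases, and the part of exon length in this split was not tested. Hipk2, a kinase that phosphorylates p53, was 13.0, 12.6 and 12.5 FPKM in control and 7.46, 7.15 and 7.20 FPKM in PGAM5 KD libraries, a log2 fold change of -0.73 (SE 0.04, limma adjusted p = 7.78e-05). The acetyltransferase gene Ep300 fell by 0.49 (SE 0.05), the DNA damage kinase gene Atm by 0.40 (SE 0.05) and Mdm4, an inhibitor of p53 related to Mdm2, by 0.34 (SE 0.06), with limma adjusted p of 0.000571, 0.00170 and 0.00553. Rpl5 and Rpl11, ribosomal proteins that bind Mdm2, rose by 0.24 (SE 0.03) and 0.18 (SE 0.05). After quantile normalization the log2 fold change of Rpl5 was 0.14 (limma adjusted p = 0.0272). That of Rpl11 was 0.09 after quantile normalization and 0.10 after scaling to TPM. The Rpl11 call was lost with no filter, with no trend, after quantile normalization, after scaling to TPM, and without control replicate 2 or 3 or PGAM5 KD replicate 2 or 3. The phosphatase gene Ppm1d, itself a p53 target, was 9.04 ± 0.218 FPKM in control and 9.09 ± 1.21 FPKM in PGAM5 KD (SD, n = 3). Cdkn2a, whose ARF product restrains Mdm2, was listed at 0 in all 6 libraries.

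The relatives of the 10 genes gave 2 higher and 2 lower of 10 tested, or 20% in each direction beside 16.8% higher and 14.9% lower over all genes. Their median log2 fold change was -0.01, and the counts were 1 higher and 3 lower after scaling to TPM. Phlda1, of the family of Phlda3, was 2.80, 2.05 and 2.02 FPKM in control and 5.94, 5.32 and 5.08 FPKM in PGAM5 KD libraries, a log2 fold change of 0.98 (SE 0.11, limma adjusted p = 0.000916). Bak1, the partner of Bax in pore formation, rose by 0.19 (SE 0.05), a call lost after quantile normalization, after scaling to TPM, and without control replicate 2 or 3 or PGAM5 KD replicate 2 or 3. The log2 fold change of Bak1 was 0.14 after quantile normalization and 0.12 after scaling to TPM. The BH3-only gene Bcl2l11 (BIM) fell by 0.43 (SE 0.07, limma adjusted p = 0.00439), in contrast to the higher values of Bbc3. The closest relative of Cdkn1a, Cdkn1b (p27), was 5.70 ± 0.725 FPKM in control and 6.02 ± 0.735 FPKM in PGAM5 KD (SD, n = 3), a log2 fold change of 0.07 (SE 0.11, limma adjusted p = 0.657). Gadd45b was 40.2 ± 0.207 and 36.7 ± 2.99 FPKM (SD, n = 3), far above Gadd45a in both groups, with a log2 fold change of -0.13 (SE 0.06, limma adjusted p = 0.137).

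The kinases and cyclins on which p21 acts were compared next, with other inhibitors. Of 17 tested CDK inhibitors and G1 cyclin-CDK genes 6 rose and 1 fell, or 35.3% and 5.9% beside 16.8% and 14.9% over all genes, and the median log2 fold change was 0.07. Ccnd2 (cyclin D2) was 0.532, 0.758 and 0.512 FPKM in control and 2.20, 2.35 and 2.15 FPKM in PGAM5 KD libraries, a log2 fold change of 1.02 (SE 0.11) that was 1.75 with a pseudocount of 0.1 and 1.89 with voom on recovered fragments. Ccnd2, which is among the 6, passed the filter only through the PGAM5 KD libraries, so its difference is given as a description. The share of 35.3% includes Ccnd2. With a filter at 5 FPKM, which Ccnd2 does not pass, 5 genes of the list rose and 1 fell. Cdkn2d (p19), an inhibitor of CDK4 and CDK6, rose by 0.63 (SE 0.14), Ccnd3 by 0.51 (SE 0.07) and Ccnd1 by 0.47 (SE 0.03). Ccnd1 was 81.3, 79.3 and 78.0 FPKM in control and 111.7, 109 and 111.3 FPKM in PGAM5 KD libraries (limma adjusted p = 8.70e-05). Cdk2 was 10.0 ± 0.246 FPKM in control and 9.95 ± 0.220 FPKM in PGAM5 KD (SD, n = 3). Cdk6 fell by 0.16 (SE 0.05), a call that was lost with no filter, median centring or no trend, and on leaving out control replicate 1 or 2 or any PGAM5 KD replicate.

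Among 24 cell cycle genes that p53, p21 and DREAM are known to repress, 1 rose, 6 fell and 17 did not pass, or 4.2% higher and 25% lower beside 16.8% and 14.9% over all genes. The median log2 fold change was 0.01, as over all genes. The 6 that fell had exon lengths of 4919 to 15433 bases, the 1 that rose 1531 bases and the 17 others 1868 to 7901 bases. The part of exon length in these counts was not tested. After quantile normalization 0 rose and 7 fell by limma, and after scaling to TPM 0 rose and 8 fell, with 1 and 0 higher at an unadjusted p under 0.05. Cdc25c, a phosphatase that activates Cdk1, was 11.7, 14.1 and 12.7 FPKM in control and 8.04, 8.79 and 8.26 FPKM in PGAM5 KD libraries, a log2 fold change of -0.56 (SE 0.07, limma adjusted p = 0.00183). The proliferation marker Mki67 fell by 0.49 (SE 0.06), Cenpf, of the kinetochore, by 0.35 (SE 0.06) and the transcription factor gene Foxm1 by 0.31 (SE 0.07). Ccnb2 (cyclin B2) rose by 0.18 (SE 0.04), a call lost after quantile normalization, after scaling to TPM, and without control replicate 1 or 3 or PGAM5 KD replicate 3. The log2 fold change of Ccnb2 was 0.11 after quantile normalization and 0.10 after scaling to TPM. The Foxm1 call was lost without control replicate 1 or 3. Ccnb1, Plk1 and Cdk1 had log2 fold changes of 0.00 (SE 0.04), 0.03 (SE 0.06) and 0.09 (SE 0.03) and did not pass.

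Transcription factors that act on Cdkn1a beside p53 gave 3 higher and 3 lower of 14 tested, or 21.4% in each direction beside 16.8% and 14.9% over all genes, with a median log2 fold change of 0.06. Irf1, an interferon-induced factor, rose by 0.46 (SE 0.09) and Ets2 by 0.17 (SE 0.03), though the Ets2 call was lost after scaling to TPM. Myc, known to repress Cdkn1a, was 45.3, 46.0 and 42.9 FPKM in control and 36.3, 39.2 and 36.5 FPKM in PGAM5 KD libraries, a log2 fold change of -0.25 (SE 0.05, limma adjusted p = 0.00648). Both groups carry v-myc from the immortalizing retrovirus, and how much of the Myc level and of its difference came from fragments of v-myc cannot be told from these files. Cebpa fell by 0.36 (SE 0.08) and Sp1 by 0.26 (SE 0.06). The Cebpa call was lost without control replicate 2 or 3 or PGAM5 KD replicate 2, and that of Sp1 without control replicate 1 or 2 or PGAM5 KD replicate 3.

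**Figure D4:**
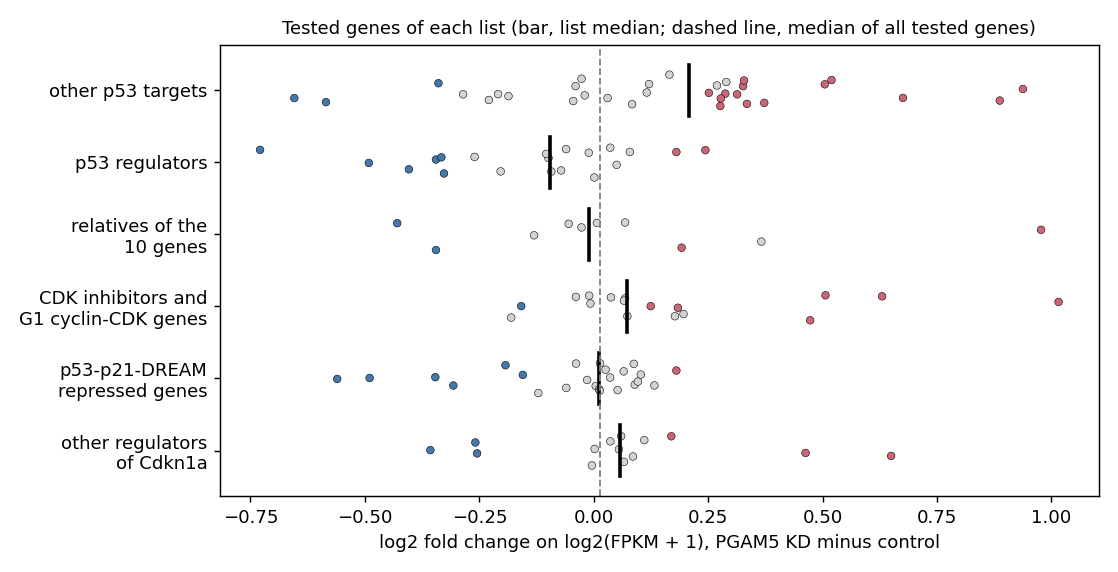
Log2 fold change of the tested genes of each list, PGAM5 KD minus control on log2(FPKM + 1) (horizontal axis), with 1 point per gene and rows for the 6 lists. Red marks genes that rose and blue genes that fell at a limma adjusted p under 0.05, grey the others, the bars are list medians and the dashed line is the median of all tested genes (0.01). The median of the other p53 targets is 0.21 and that of the p53 regulators is -0.10.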

How the data were processed

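RNA-seq was performed on 6 libraries, 3 from control and 3 from PGAM5 KD iBMDMs. The authors deposited FPKM values, 1 table per library. Their processing notes name HISAT2 2.0.5, featureCounts 1.5.0-p3 and mm10. The annotation and the strand setting are not given in the sources used here. The deposited FPKM carry no scaling between libraries beyond depth. FPKM times the exon length in GENCODE M21, which held 54495 of the 54532 identifiers, fell on whole fragments (tolerance 0.01, values under 1000 fragments) in 96.8% to 97.1% of cases, which gave depths and fragment counts. Depth limits the precision of genes with few fragments.

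Groups came from the labels. Log2(FPKM + 1) was fitted with limma 3.58.1 in R 4.3.3 (lmFit, then eBayes with its trend option) for the 10540 genes that averaged 1 FPKM or more. A call is a two-sided p under 0.05 after Benjamini-Hochberg adjustment. The fit was tested on simulated data, where it recovered 189 of 200 genes that differed 2.5-fold among 10540, with 8 false calls. Most differences reported here are smaller than 2.5-fold, and recovery of smaller ones was not simulated. The simulated libraries were independent, which is not known of the real ones. Replicates of a group differed by more than sampling noise. The 10 genes and all lists were chosen with earlier results of these data known, and some genes, such as Mdm4 and Cdkn1b, stand in more than 1 list. Named genes were the 10 genes, Pgam5, at most 4 higher and 4 lower genes of each list by size of change, members of a list with a role the text needs, the 5 genes most like Cdkn1a, and overlapping genes. A few genes that this rule names are counted in their lists but not reported here by name. Similar genes were found with blastn 2.17.0 (at least 85% identity over 200 bases). Figures were drawn with matplotlib 3.10.9. The alternatives were a pseudocount of 0.1, no filter, a filter at 5 FPKM, quantile normalization, scaling to TPM, median centring, no trend, a replicate block, voom on recovered fragments and leaving out each library.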

Additional observations from a re-analysis of the deposited data

How the results depend on the processing

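The log2 fold change of Cdkn1a was 1.0074 after quantile normalization and 1.0003 after scaling to TPM, and 1.0434 to 1.0810 when single libraries were left out. For Trp53 the same scalings gave -0.01 and -0.03 and for Mdm2 0.02 and -0.03. The whole of the FPKM summed to 304393 to 304889 in control and 317936 to 324298 in PGAM5 KD libraries. Of all calls 52.9% were higher, against 45.5% after quantile normalization and 32.3% after scaling to TPM, where 1088 genes were higher and 2282 lower. With voom on recovered fragments 1947 genes were higher and 1936 lower. Over all genes, leaving out single libraries gave 1211 to 1497 higher and 1129 to 1361 lower.

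For the other p53 targets, 8 were higher with no filter and 8 with a filter at 5 FPKM. The lower count was 5 after quantile normalization, 7 after scaling to TPM, 5 with no trend and 6 with voom. For the p53 regulators 1 was higher with no filter, quantile normalization, scaling to TPM or no trend. Of the relatives 1 was higher with a filter at 5 FPKM, quantile normalization or scaling to TPM, and 1 was lower with that filter. Of the CDK inhibitors and G1 genes 0 were lower with no filter, median centring or no trend, where Cdk6 missed the threshold of limma (1 lower at an unadjusted p under 0.05 in each, and 1 called by voom). Of the repressed cell cycle genes 0 were higher after quantile normalization or scaling to TPM and 2 with voom. Of the other Cdkn1a regulators 1 was higher with a filter at 5 FPKM. The filter at 5 FPKM tests fewer genes by construction, and for the other changes the cause was not tested.

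Leaving out single libraries gave 7 to 12 higher and 1 to 4 lower other p53 targets, 1 to 2 higher and 4 to 5 lower p53 regulators, 1 to 2 higher and 2 lower relatives, 5 to 6 higher and 0 to 1 lower CDK inhibitors and G1 genes, 0 to 1 higher and 4 to 6 lower repressed cell cycle genes, and 3 higher and 1 to 3 lower other Cdkn1a regulators. The lower other p53 targets were 1 without control replicate 2 or PGAM5 KD replicate 3. The higher p53 regulators and the higher relatives were 1 without control replicate 2 or 3 or PGAM5 KD replicate 2 or 3. The higher repressed cell cycle genes were 0 without control replicate 1 or 3 or PGAM5 KD replicate 3 by limma, with 2, 2 and 3 at an unadjusted p under 0.05. The lower CDK inhibitors and G1 genes were 0 in limma when any library other than control replicate 3 was left out, with 1 or 2 at an unadjusted p under 0.05. The lower other Cdkn1a regulators were 1 without control replicate 2.

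Replicate numbers are shared by the groups, but same-numbered libraries did not deviate together (r = -0.02, 0.016 and -0.052). With 3 libraries per group this cannot tell whether same-numbered libraries were cultured or prepared together. With the replicate block 1440 genes were higher and 1212 lower, 5 other p53 targets were lower, 1 p53 regulator and 1 relative were higher, 0 CDK inhibitors and G1 genes were lower and 0 repressed cell cycle genes were higher by limma (2 and 2 at an unadjusted p under 0.05). The calls of Bak1, Rpl11, Cdk6 and Ccnb2 were lost with the block (limma adjusted p = 0.0504, 0.0905, 0.0714 and 0.0608). Of the 33 genes named by rule, Pgam5 included and the 10 genes aside, none changed sign under any of the 15 alternatives, and 11 missed the threshold under at least 1 of them. The depth limits Gadd45a and Trp53inp1 in particular, which had 9 to 62 fragments.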
